A study of Mus musculus with 10 samples.

Results

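The core adipogenic transcription factors are described here as 9 genes: the C/EBP family members Cebpa, Cebpb, Cebpd and Cebpg, and the genes Pparg, Rxra, Srebf1, Nr1h3 and Nr3c1. Members were taken by name alone, as every probe set that the platform annotation pairs with 1 of these gene symbols and no other. This gave 20 of the 45037 probe sets and 9 of the 18193 named genes. A probe set is a group of short array probes whose combined brightness, the intensity, stands for the level of a transcript. RNA of 3T3-L1 cells, a single line of mouse fibroblastic preadipocytes that turn into adipocytes under hormonal induction, was read on 10 Affymetrix arrays. All cells were kept as preadipocytes in DMEM with calf serum and received 60 nM of an siRNA with the lipid reagent Metafectene Pro, with no later change of medium. The groups were siLSD1 (an siRNA against LSD1, a histone demethylase encoded by Kdm1a) and siControl (a scrambled siRNA), with 2 arrays for each siRNA at 24 h (cells of passage 19) and 3 for each at 48 h (cells of passage 21). Time and passage therefore cannot be told apart. The labels call the replicates biological without saying what they shared, so the spread behind each p-value may be partly technical.

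When preadipocytes are induced to differentiate, C/EBPβ and C/EBPδ appear early in response to hormonal signals, and they then switch on C/EBPα and the nuclear receptor PPARγ. PPARγ binds DNA as a pair with the retinoid X receptor RXRα, and PPARγ and C/EBPα maintain each other and the genes of the fat cell. The glucocorticoid receptor (Nr3c1) answers the dexamethasone of the usual induction mix, while SREBP1 (Srebf1) and the oxysterol receptor LXRα (Nr1h3) drive genes of lipid synthesis and cholesterol handling.

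RefSeq promoter windows of the 250 bases before an annotated start (GRCm38.p6) were found for 7 of the 9 genes, in 13 windows. The windows of Cebpb and Cebpa are shown because the levels of these genes lay on opposite sides of siControl in siLSD1 cells, and that of the most downstream of the 3 Pparg starts because it holds C/EBP motifs. Capitals mark matches, on either strand, to a CRE core (TGACG or CGTCA, bound by CREB-type factors) in the Cebpb window at chr2:167688665-167688914 and to a C/EBP motif (TTGCNNAA or TTNNGCAA) in the Pparg window at chr6:115421816-115422065. The Cebpa window lies at chr7:35119043-35119292, and all 3 are on the plus strand, written 5′ to 3′ towards the start.
Cebpb: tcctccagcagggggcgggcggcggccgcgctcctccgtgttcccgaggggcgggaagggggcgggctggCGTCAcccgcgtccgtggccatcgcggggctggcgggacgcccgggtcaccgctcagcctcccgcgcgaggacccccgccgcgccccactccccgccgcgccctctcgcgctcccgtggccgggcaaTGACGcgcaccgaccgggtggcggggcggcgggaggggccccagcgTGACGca
Cebpa: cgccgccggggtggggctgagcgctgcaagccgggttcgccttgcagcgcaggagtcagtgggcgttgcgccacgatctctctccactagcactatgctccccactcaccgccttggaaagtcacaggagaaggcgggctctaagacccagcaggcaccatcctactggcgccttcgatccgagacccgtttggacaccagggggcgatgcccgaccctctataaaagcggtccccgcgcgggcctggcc
Pparg: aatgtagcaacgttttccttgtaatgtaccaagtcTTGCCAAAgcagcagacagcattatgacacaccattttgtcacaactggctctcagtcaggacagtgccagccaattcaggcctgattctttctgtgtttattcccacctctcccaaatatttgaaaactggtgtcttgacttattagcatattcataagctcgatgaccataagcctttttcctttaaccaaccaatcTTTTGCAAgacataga
The Cebpb window held 3 CRE cores, 180, 53 and 7 bases before the start, and no C/EBP motif. The Cebpa window held no exact match to either of these motifs, and near matches were not counted. The Pparg window held 2 C/EBP motifs, 215 and 16 bases before the start, which do not overlap. Of 32536 distinct windows of this length in the table, 17.9% held a CRE core and 9.57% a C/EBP motif. A match is a description of the letters and not evidence of binding, and a missing match is not evidence that a factor does not bind.

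Median intensity per array lay between 35.6 and 40.6, and precision is limited by the small number of arrays. Kdm1a, the targeted gene, had intensities of 1001 and 971 in siLSD1 cells at 24 h, against 1559 and 1621 in siControl cells, and of 1352, 1336 and 897 in siLSD1 cells at 48 h, against 1596, 1787 and 1775 in siControl cells. It was lower in siLSD1 cells by 1.61-fold at 24 h and 1.46-fold at 48 h (limma, adjusted p = 0.0473 and 0.0338). Without siLSD1 replicate 3 at 48 h, an array that stood apart, the 48 h difference was 1.28-fold (adjusted p = 0.00277). Of markers of the labelled cell type, 12 of 13 preadipocyte and fibroblast markers with a probe set passed the filter on dim genes, at a median of 4561, while 5 of 10 mature adipocyte markers were dim, among them Cidec, Lep and Retn. The mature adipocyte list had a median of 26.2, but its brightest member, Fabp4, had a mean of 2882 (1320 to 5333). Fabp4 was called lower in siLSD1 cells at both times. The summed preadipocyte and fibroblast markers lay lower in siLSD1 cells, at 75718 to 76122 in siLSD1 against 84157 to 87198 in siControl cells at 24 h and 60423 to 78840 in siLSD1 against 84691 to 86586 in siControl cells at 48 h, with Thy1 and Fn1 called lower at 24 h and Thy1 at 48 h, and their part in the results was not tested. Of 10 macrophage and leukocyte markers, 8 passed the filter on dim genes, with Cd14 the brightest (385) and a list median of 50.4. The other 2, Ptprc and Fcgr1, were dim, and none was called. These markers summed to 972 to 1059 in siLSD1 against 1001 to 1015 in siControl cells at 24 h. At 48 h they summed to 838 to 998 in siLSD1 against 920.0 to 962 in siControl cells. Muscle markers, at a median of 27.9, summed to 480.3 to 512 in siLSD1 against 334 to 371 in siControl cells at 24 h and to 326 to 412 in siLSD1 against 273 to 356 in siControl cells at 48 h. Of the 5 tested, Des was called higher at 48 h (log2 change 0.50, adjusted p = 0.0458), Myog, Myf5 and Pax7 were dim, and their part in the results was not tested. Endothelial and epithelial markers were mostly dim (6 of 8 and 5 of 7), with none called. Over 6943 bright genes, the SD of the log2 differences of siLSD1 replicate 3 at 48 h from the other siLSD1 arrays of that time was 0.441 and 0.439, while those 2 arrays differed from each other with an SD of 0.0892. From the siLSD1 arrays at 24 h, replicate 3 differed with smaller SDs of 0.361 and 0.353. Its median intensity was 36.2, against 38.0 to 40.6 on the other 48 h arrays and 35.6 to 36.4 on the 24 h arrays. The reason was not tested. Results are therefore given with and without that array.

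At 48 h, 2 of the 9 transcription factor genes passed the test at an adjusted p under 0.05: Cebpb rose 1.39-fold and Nr3c1 fell 1.29-fold in siLSD1 cells. That is 2 of 9 where 12.7% of all 13644 tested genes were called (6% higher, 6.67% lower), and 5 of 9 had an unadjusted p under 0.05, as did 31.7% of all genes. At 24 h none of the 9 passed in limma (3 at an unadjusted p under 0.05, as for 22.5% of all genes), where 5.39% of all genes were called (2.6% higher, 2.79% lower). By another count, the siLSD1 and siControl arrays did not overlap for 7 of 9 genes at 24 h (3 higher, 4 lower), where 61.4% of all tested genes did not overlap (27.5% higher, 33.9% lower), and for 5 of 9 at 48 h (1 higher, 4 lower), where the share over all genes was 37.5% (16.6% higher, 20.9% lower). The median log2 change over the 9 genes was -0.050 at 24 h and -0.025 at 48 h, against -0.022 and -0.016 over all tested genes. Without siLSD1 48 h replicate 3, 4 of the 9 genes passed at 24 h (Cebpb higher; Cebpa, Rxra and Nr3c1 lower), beside 25.5% of all genes, and 5 of 9 at 48 h (Cebpb higher; Cebpa, Pparg, Rxra and Nr3c1 lower), beside 18.1% of all genes. Leaving out that array moves no 24 h change. At 24 h only the spread shared by the 4 groups differs, and siLSD1 replicates 1 and 2 at 48 h are the closest pair of arrays (SD 0.0892). In bulk RNA, fewer cells with a transcript and less transcript per cell cannot be told apart.

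**Figure D1:**
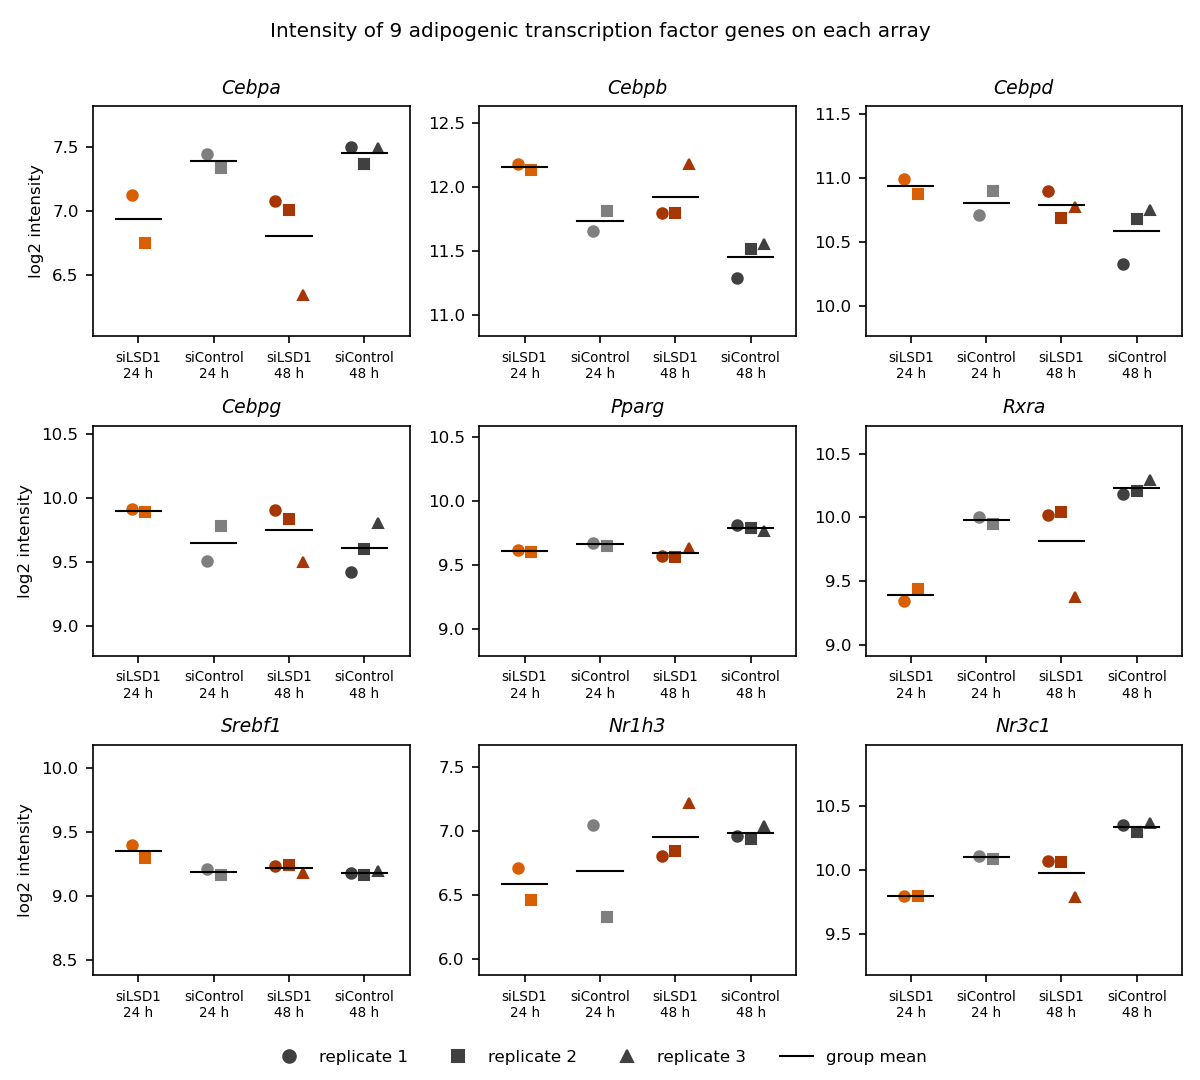
Log2 intensity of the 9 genes by their brightest probe set on each array, with siLSD1 left of siControl at 24 h and 48 h (symbols mark replicates, bars group means). Cebpb lay higher, and Cebpa, Pparg, Rxra and Nr3c1 lower, on every siLSD1 array than on every siControl array of the same time.

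Among the C/EBP family, Cebpb encodes C/EBPβ, the early inducer of the adipogenic cascade. Its brightest probe set (1418901_at, Entrez gene 12608) read 4633 and 4492 in siLSD1 cells at 24 h, against 3231 and 3607 in siControl cells. At 48 h it read 3568, 3553 and 4634 in siLSD1 cells, against 2500.1, 2923 and 3003 in siControl cells. The siLSD1 arrays were the higher ones at both times without overlap, and siLSD1 replicate 3 at 48 h read like the 24 h siLSD1 arrays. The log2 change was 0.42 (SE 0.13, adjusted p = 0.102 in limma) at 24 h and 0.47 (SE 0.11, adjusted p = 0.0263) at 48 h. Without that array the 48 h change was 0.35 with an adjusted p of 0.00966, and the 24 h change passed with an adjusted p of 0.00377. The 48 h call was lost when any 1 of the 3 siControl arrays at 48 h was left out (adjusted p = 0.0853, 0.0769 and 0.0545). By group mean, Cebpb ordered as siLSD1 24 h (4562 ± 99.9, SD, n = 2), siLSD1 48 h (3918 ± 620.2, n = 3), siControl 24 h (3419 ± 266, n = 2) and siControl 48 h (2809 ± 270.2, n = 3). Neither step between times within an siRNA passed the test.

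Cebpa encodes C/EBPα, which acts later in differentiation and maintains the fat cell together with PPARγ. Its only probe set (1418982_at) read 139.9 and 107 in siLSD1 cells at 24 h, against 174 and 162 in siControl cells. The 48 h values were 135, 129 and 81.0 in siLSD1 cells, against 181, 165 and 179.6 in siControl cells. Every siLSD1 array lay below every siControl array of its time, and replicate 3 at 48 h was the lowest of all. On the log2 scale it differed by -0.45 (SE 0.23, adjusted p = 0.282 in limma) at 24 h and by -0.64 (SE 0.19, 1.56-fold lower) at 48 h, where the adjusted p of 0.0506 just missed the threshold. Without replicate 3 the 48 h change was -0.41 and passed (adjusted p = 0.0381), and it also passed without siLSD1 replicate 1 (-0.78, adjusted p = 0.0346) or replicate 2 (-0.74, adjusted p = 0.0453). It did not pass without any 1 of the other 7 arrays, at adjusted p of 0.0691 to 0.0769 without a 24 h array and of 0.116 to 0.125 without a siControl array at 48 h. The 24 h change passed without replicate 3 as well, with an adjusted p of 0.0274, while leaving out siLSD1 24 h replicate 2 gave -0.26, the smallest size of any fit that dropped 1 array.

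Cebpd encodes C/EBPδ, the other early inducer, and did not pass at either time. Its brightest probe set read 2039 and 1878 in siLSD1 cells at 24 h, against 1671 and 1908 in siControl cells, and 1906, 1649 and 1747 in siLSD1 cells at 48 h, against 1284, 1638 and 1719 in siControl cells. The groups overlapped at both times. Its log2 change was 0.13 at 24 h (95% interval -0.18 to 0.44) and 0.20 at 48 h (-0.05 to 0.45).

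Cebpg encodes C/EBPγ, a family member that lacks a strong activation domain of its own and pairs with other basic leucine zipper proteins. It lies beside Cebpa on chromosome 7, with 2 annotated genes between them, 1 of them protein coding. It read 962 and 946 in siLSD1 cells at 24 h, against 729 and 879 in siControl cells, and 959, 914 and 722 in siLSD1 cells at 48 h, against 685, 775 and 894 in siControl cells. Only the 24 h groups were apart, and at 48 h replicate 3 lay in the siControl range. Its log2 change was 0.25 at 24 h (95% interval -0.11 to 0.62) and 0.14 at 48 h (-0.16 to 0.44), and neither passed. The 48 h change was 0.36 and passed (adjusted p = 0.0234 in limma) with the sample code as a block, and was -0.031 with the 3 probe sets averaged.

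Nr3c1 encodes the glucocorticoid receptor, a nuclear receptor present before induction that responds to dexamethasone. Its brightest probe set (1460303_at, Entrez gene 14815) read 888 and 889 in siLSD1 cells at 24 h, against 1103 and 1089 in siControl cells. The 48 h values were 1077, 1071 and 883 in siLSD1 cells, against 1307, 1256 and 1322 in siControl cells. The arrays of a group lay close together except for replicate 3 at 48 h, which read like the 24 h siLSD1 arrays, and the groups did not overlap. The log2 change was -0.30 (SE 0.10, adjusted p = 0.122 in limma) at 24 h and -0.36 (SE 0.09, adjusted p = 0.0272) at 48 h. Without replicate 3 it was -0.27 at 48 h (adjusted p = 0.00531), and the 24 h change passed with an adjusted p of 0.00289. The 48 h call was lost without any 1 of the 3 siControl arrays at 48 h (adjusted p = 0.0773, 0.0845 and 0.0816) or of the 2 siLSD1 arrays at 24 h (0.0530 and 0.0532), and when the mean of all 6 probe sets was used (-0.17, adjusted p = 0.431).

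Pparg encodes PPARγ, the nuclear receptor that directs fat cell formation. Its probe set (1420715_a_at) read 787 and 778 in siLSD1 cells at 24 h, against 818 and 803 in siControl cells. By 48 h it read 762, 758 and 796 in siLSD1 cells, against 902, 885 and 872 in siControl cells. The siLSD1 arrays were lower at both times without overlap, by a small margin at 24 h. Its log2 change of -0.050 (95% interval -0.23 to 0.13, adjusted p = 0.764 in limma) at 24 h and of -0.20 (-0.35 to -0.05, adjusted p = 0.0692) at 48 h did not pass. Without replicate 3 the 48 h change was -0.22 and passed (adjusted p = 0.0174).

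Rxra encodes RXRα, the DNA-binding partner of PPARγ and of LXRα. Its brightest probe set (1454773_at) read 649 and 694 in siLSD1 cells at 24 h, against 1029 and 989.9 in siControl cells. At 48 h it read 1038, 1057 and 665 in siLSD1 cells, against 1165, 1179 and 1256 in siControl cells. All siLSD1 arrays were lower, and at 48 h replicates 1 and 2 lay just under the siControl range while replicate 3 was at the level of the 24 h siLSD1 arrays. Log2 changes were -0.59 (SE 0.19, 1.50-fold lower, adjusted p = 0.101 in limma) at 24 h and -0.41 (SE 0.15, 1.33-fold lower, adjusted p = 0.0999) at 48 h, and neither passed. Without replicate 3 the 24 h change, itself unmoved, passed with an adjusted p of 0.000111, and the 48 h change was -0.19 with an adjusted p of 0.0473. With its probe sets averaged the changes were -0.087 at 24 h and 0.22 at 48 h, on the other side of 0, and neither passed. That average gives the brightest probe set the same weight as the dimmer ones, with intensities of 77.2 to 111 and of 5.06 to 24.2.

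Srebf1 and Nr1h3 encode the lipogenic regulators SREBP1 and LXRα. Srebf1 read 675 and 629 in siLSD1 cells at 24 h, against 591 and 572 in siControl cells, and 603, 604 and 578 in siLSD1 cells at 48 h, against 580.4, 575 and 587 in siControl cells. Its groups were apart at 24 h and overlapped at 48 h, with log2 changes of 0.16 (95% interval -0.03 to 0.36) and 0.035 (-0.12 to 0.19). Nr1h3, among the dimmer probe sets of the 9 genes, read 105 and 88.2 in siLSD1 cells at 24 h, against 133 and 80.5 in siControl cells, and 112, 115 and 149 in siLSD1 cells at 48 h, against 125, 123 and 132 in siControl cells. The Nr1h3 groups overlapped at both times, and its intervals were wide: -0.10 (-0.61 to 0.41) at 24 h and -0.025 (-0.44 to 0.39) at 48 h. Neither gene passed at either time, with or without replicate 3.

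The genes with several probe sets did not all read alike. Over the 11 probe sets other than the brightest, the sign matched that of the brightest for 7 at 24 h and for 5 at 48 h. Cebpb read higher in siLSD1 cells by its other probe set too (1427844_a_at), at 2002 and 2038 in siLSD1 cells at 24 h, against 1469.9 and 1239.8 in siControl cells, and at 1321, 1391 and 2189 in siLSD1 cells at 48 h, against 1246, 1114 and 955 in siControl cells. These groups did not overlap, and the log2 changes were 0.58 and 0.53, with adjusted p of 0.264 and 0.119 in a limma fit over all 45037 probe sets. In that fit 1.25% of probe sets were called at 24 h and 3.36% at 48 h, and the brightest probe sets of Cebpb and Nr3c1 passed at 48 h (adjusted p = 0.0477 and 0.0465).

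For Nr3c1, the next brightest probe set (1421867_at) read 825 and 789.9 in siLSD1 cells at 24 h, against 1015 and 1029.8 in siControl cells, and 897, 1006 and 696 in siLSD1 cells at 48 h, against 1104, 1039 and 1156 in siControl cells. It was lower without overlap at both times, by log2 changes of -0.34 and -0.36, and did not pass (adjusted p = 0.343 and 0.121). The 1457635_s_at probe set gave -0.43 and -0.34, while the remaining 3 were dim or variable, with intensities from 17.9 to 195 and changes of both signs. Rxra was discordant: 1425762_a_at, at 77.2 to 111, differed by 0.11 at 24 h and 0.22 at 48 h, and 1430497_at, at 5.06 to 24.2, by 0.22 and 0.85, opposite in sign to the brightest and not past the threshold. For Cebpg, 1451639_at gave 0.19 and 0.24 and the dim 1425261_at gave -0.22 and -0.47. The second Cebpd probe set gave 0.067 and -0.0045.

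**Figure D2:**
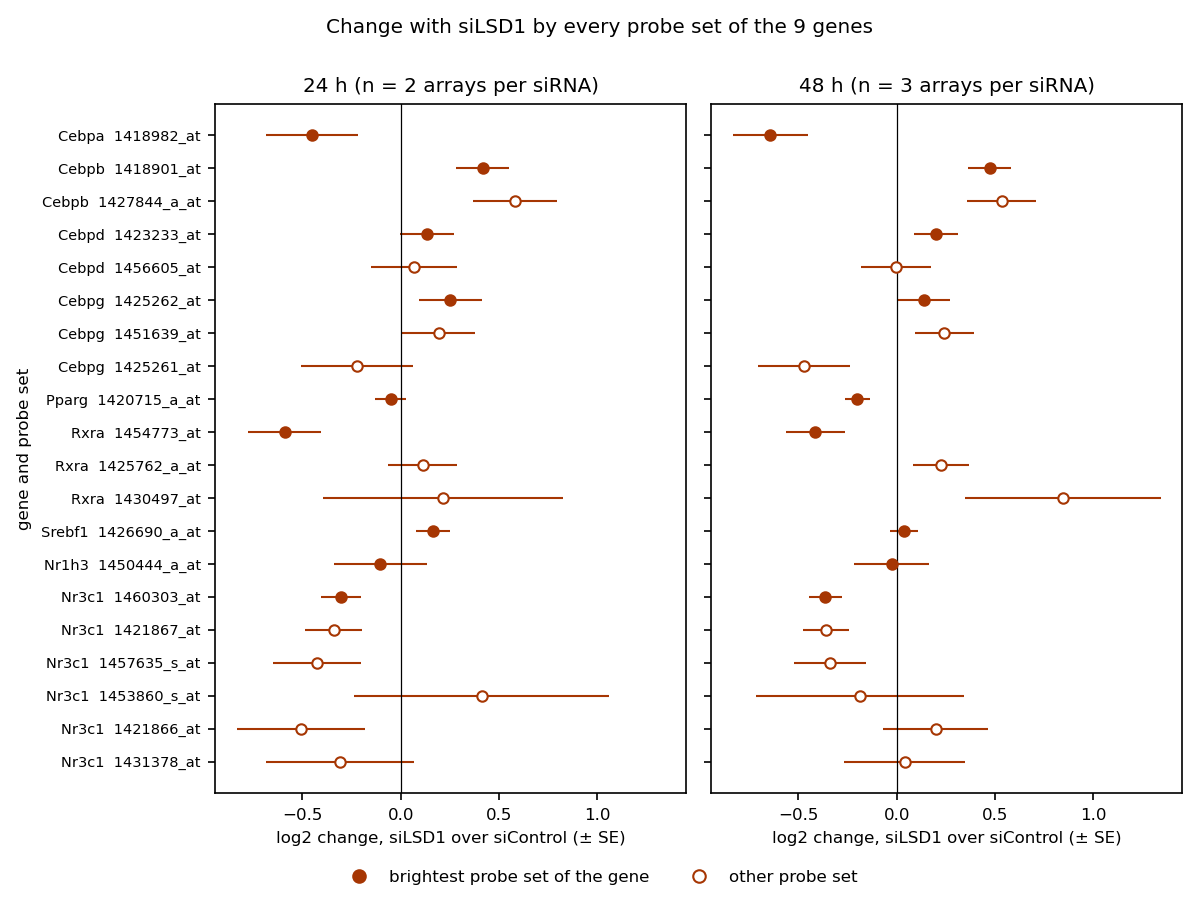
Log2 change, siLSD1 over siControl, with its SE, for each of the 20 probe sets at 24 h and 48 h (filled, brightest of its gene; open, others). Both Cebpb probe sets lay above 0 and the 3 brightest Nr3c1 probe sets below 0 at both times, while the 2 open Rxra probe sets lay on the other side of 0 from the filled one.

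Whether the siLSD1 change differed between the times was tested as the difference of the 2 changes, and no gene of all 13644 passed in limma (0 called; 6.57% at an unadjusted p under 0.05). None of the 9 factors had an unadjusted p under 0.05 either. The largest difference by size was that of Cebpa, -0.19 (95% interval -0.85 to 0.47), and that of Rxra was 0.18 (-0.37 to 0.72). Without replicate 3, 1.47% of all genes and none of the 9 factors passed, with the Rxra difference at 0.39 and an adjusted p of 0.0588.

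Set against the siControl mean of its own time on the log2 scale, replicate 3 at 48 h was the siLSD1 array farthest from siControl for 5 factors, Nr1h3 (0.24) and the 4 that follow. Cebpa lay at -0.37, -0.44 and -1.11 on siLSD1 replicates 1, 2 and 3 at 48 h, beside -0.26 and -0.64 at 24 h. Rxra lay at -0.21, -0.18 and -0.85 at 48 h, beside -0.64 and -0.54 at 24 h. Nr3c1 lay at -0.27, -0.27 and -0.55, beside -0.30 at both 24 h arrays, and Cebpb at 0.35, 0.34 and 0.73, beside 0.44 and 0.40. Replicates 1 and 2 at 48 h thus lay closer to siControl than replicate 3 for these 4 genes. Replicate 3 lay nearer to the siLSD1 24 h mean than to replicates 1 and 2 of its own group for 5 of the 9 factors, and the same held for 57.1% of all tested genes. Kdm1a was lower on replicate 3 as well, at 897 against 1352 and 1336 on the other siLSD1 arrays at 48 h. Its part in these results was not tested beyond leaving the array out.

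**Figure D3:**
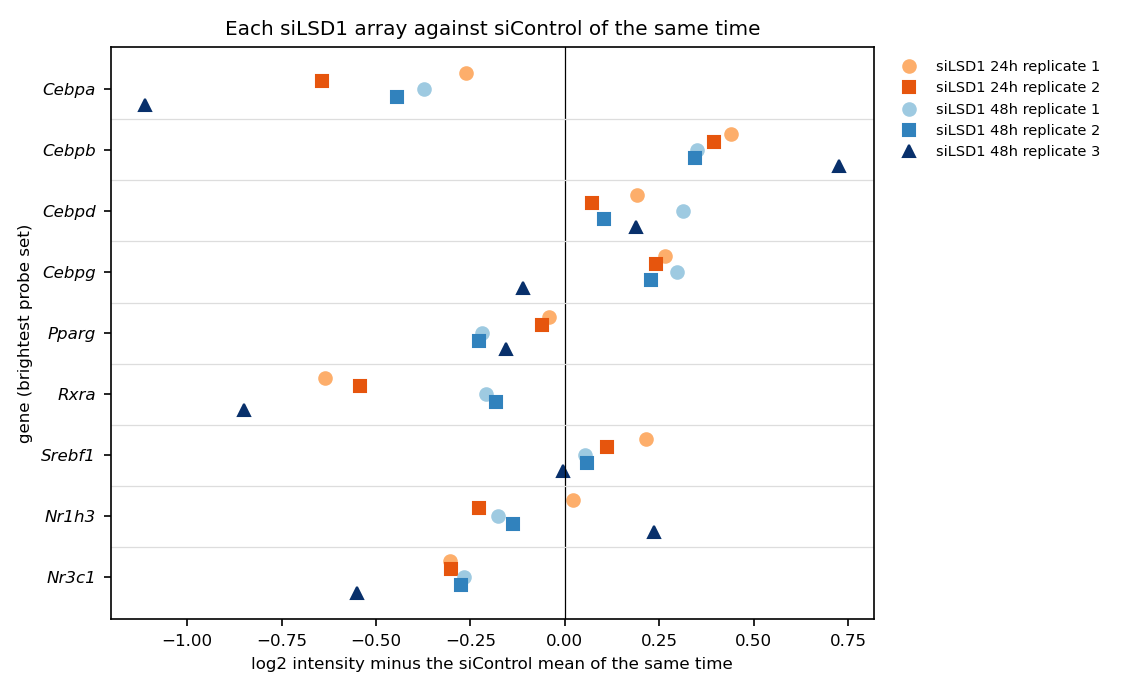
Log2 intensity of each siLSD1 array minus the siControl mean of the same time, for the brightest probe set of each of the 9 genes (symbols mark the 5 siLSD1 arrays). Among the genes for which replicate 3 at 48 h lay farthest from 0 were Cebpa (-1.11), Cebpb (0.73), Rxra (-0.85) and Nr3c1 (-0.55).

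Between the times, no factor passed in either siRNA, although 24.2% of all genes were called in siControl cells at 48 h against 24 h and 14.4% in siLSD1 cells. At an unadjusted p under 0.05, 2 of the 9 factors passed in siControl cells (36.4% of all genes) and 1 in siLSD1 cells (29.4% of all genes). In siControl cells, Nr3c1 was 0.24 higher at 48 h (adjusted p = 0.0962 in limma), Rxra 0.25 higher (0.337) and Pparg 0.13 higher (0.237) on the log2 scale, and Cebpb differed by -0.29 (0.122). The 48 h and 24 h siControl arrays of these 4 genes did not overlap, as for 55.6% of all genes, while in siLSD1 cells Nr1h3 (higher at 48 h) and Srebf1 (lower) did not, as for 43.1% of all genes. In siLSD1 cells, Rxra was 0.42 higher (adjusted p = 0.131), Nr1h3 0.37 higher (0.277) and Cebpb differed by -0.23 (0.248). Without replicate 3, Cebpb was lower and Rxra and Nr3c1 higher at 48 h in both siRNAs, each past the threshold, beside 40.4% of all genes in siControl and 38.3% in siLSD1 cells. The siControl changes, to which that array does not belong, stayed at -0.29, 0.25 and 0.24 (adjusted p = 0.0106, 0.00653 and 0.00342). Those in siLSD1 cells were then -0.36, 0.64 and 0.27 (adjusted p = 0.00539, 2.62e-05 and 0.00297).

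Genes that act around the 9 factors were counted in lists by role, at the same threshold, beside which 2.6% of all genes were called higher and 2.79% lower at 24 h, and 6% higher and 6.67% lower at 48 h. Of 6 tested relatives (other PPAR, RXR, SREBP, LXR and C/EBP genes), none passed at 24 h, with list medians of 0.079 at 24 h and -0.012 at 48 h. At 48 h Ddit3, a stress-induced C/EBP relative that blocks its partners, was higher in siLSD1 cells. It had 3830 ± 576, against 2693 ± 186 in siControl cells (SD, n = 3 each, log2 change 0.50, adjusted p = 0.0139 in limma). Without replicate 3, Ddit3 also passed at 24 h (0.24, adjusted p = 0.0159), and at 48 h 1 relative rose and 1 fell, with a list median of 0.17. Of 17 early inducers of adipogenesis, 1 rose and 1 fell at 24 h and 1 rose at 48 h, with list medians of -0.13 and -0.19 on the log2 scale, beside 5.39% and 12.7% of all genes called in either direction. These were Klf4, an activator of Cebpb, at 24 h (2336 ± 144 in siLSD1 and 1626 ± 131 in siControl cells, n = 2 each, adjusted p = 0.0193), Zfp423, a preadipocyte commitment factor, lower at 24 h (271 ± 37.2 and 408 ± 41.6, adjusted p = 0.0319), and the clock gene Arntl at 48 h (394 ± 38.8 and 279.8 ± 42.8, n = 3 each, adjusted p = 0.0374). Without replicate 3, 2 inducers were higher and 6 lower at 24 h and 3 higher and 4 lower at 48 h, past the threshold, and the 48 h median was -0.067. In the fit without that array, 25.5% of all genes were called at 24 h and 18.1% at 48 h.

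Of 22 factors known to restrain adipogenesis, none passed at 24 h, where Dlk1, the preadipocyte marker, had the smallest p (log2 change -0.32, adjusted p = 0.0653 in limma; 0.0108 without replicate 3). At 48 h 1 rose and 2 fell, with a list median of -0.15. All tested genes were called higher in 2.6% and lower in 2.79% at 24 h, and in 6% and 6.67% at 48 h. The pseudokinase gene Trib3 rose 1.76-fold (adjusted p = 0.00185), while Foxo1 fell 1.36-fold and Sox9 1.28-fold (adjusted p = 0.0436 and 0.0332). Of 23 cofactors of nuclear receptors and SREBP, Cited2, a CBP/p300-binding coregulator, rose at both times (1.38-fold at 24 h and 1.31-fold at 48 h; adjusted p = 0.00806 and 0.00536), and the arginine methyltransferase gene Carm1 fell 1.20-fold at 48 h (adjusted p = 0.0412). Without replicate 3, 1 restraining factor rose and 4 fell at 24 h and 3 rose and 5 fell at 48 h (list median -0.097). Of the cofactors, 1 then rose and 5 fell at 24 h and 2 rose and 2 fell at 48 h. That fit called 25.5% of all genes at 24 h and 18.1% at 48 h.

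Of 16 tested target genes of PPARγ and C/EBPα, 3 fell and none rose at each time, with list medians of -0.11 at 24 h and -0.0575 at 48 h, where 2.79% and 6.67% of all genes were called lower. Fabp4, the fatty acid binding protein of fat cells, had 1467 ± 208 in siLSD1 cells at 24 h, against 3540.2 ± 56.3 in siControl cells (n = 2 each; log2 change -1.28, SE 0.29, adjusted p = 0.0358 in limma). At 48 h it had 2387 ± 877 in siLSD1 cells, against 5059 ± 451 in siControl cells (n = 3 each; -1.16, SE 0.24, adjusted p = 0.0183), and -0.81 without replicate 3. It made up most of the summed level of the mature adipocyte markers, 1565 to 1852 in siLSD1 against 3726 to 3832 in siControl cells at 24 h and 1608 to 3237 against 4826 to 5538 at 48 h. The fatty acid transporter gene Cd36 fell by 1.00 on the log2 scale at 24 h (adjusted p = 0.0110) and the lipid droplet gene Plin4 fell by 0.59 at 48 h (adjusted p = 0.0102). Fabp5, a related fatty acid binding protein, fell by 0.46 at 24 h and 0.26 at 48 h (adjusted p = 0.0219 and 0.0458). Without replicate 3, 1 target rose and 5 fell at 24 h and none rose and 4 fell at 48 h, with a 48 h median of -0.13. That fit called 25.5% of all genes at 24 h and 18.1% at 48 h.

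Of 22 targets of SREBP1 and LXR, 1 rose and 1 fell at 24 h and 1 rose and 2 fell at 48 h, with medians of -0.29 and -0.10. The shares of all tested genes were 2.6% higher and 2.79% lower at 24 h, and 6% and 6.67% at 48 h. The desaturase gene Fads2 fell at both times, by 0.41 and 0.29 on the log2 scale (adjusted p = 0.0359 and 0.0352 in limma). At 48 h the elongase gene Elovl6 fell by 0.92 (adjusted p = 0.0448), and by 0.55 without replicate 3 (adjusted p = 0.00927), and Mid1ip1, a regulator of fatty acid synthesis, rose by 0.49 (adjusted p = 0.00720). The rise of Apoe at 24 h rested on dim signals, 24.2 ± 3.61 in siLSD1 and 6.60 ± 3.04 in siControl cells (n = 2 each, adjusted p = 0.0340). Fasn, the fatty acid synthase gene and a standard SREBP1 target, differed by -0.14 and 0.086, and Abca1, the cholesterol exporter gene and a standard LXR target, by -0.56 and 0.17, none of which passed (adjusted p = 0.410, 0.476, 0.0598 and 0.370). Abca1 at 24 h passed without replicate 3, with an adjusted p of 0.00274. Without replicate 3, 2 of the 22 targets rose and 11 fell at 24 h, 2 rose and 3 fell at 48 h, and the 48 h median was 0.0046. Over all genes, 25.5% were then called at 24 h and 18.1% at 48 h.

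Of 22 targets of the glucocorticoid receptor, 2 rose and none fell at 24 h, and 4 rose and 6 fell at 48 h. The list medians were -0.038 and -0.19. Among all tested genes, 2.6% were called higher and 2.79% lower at 24 h, and 6% and 6.67% at 48 h. Fkbp5, the receptor's co-chaperone and standard target, had 543 ± 16.8 in siLSD1 cells at 24 h, against 813 ± 1.41 in siControl cells (log2 change -0.58, adjusted p = 0.0739 in limma), and passed without replicate 3 (adjusted p = 8.72e-05). At 48 h it was again lower in siLSD1 cells, at 608 ± 128, against 918 ± 18.4 in siControl cells (-0.62, adjusted p = 0.0224). The MAP kinase phosphatase gene Dusp1 rose 2.40-fold and the NF-κB inhibitor gene Nfkbia 1.37-fold at 24 h (adjusted p = 0.0259 and 0.0273). At 48 h the sulfotransferase gene Sult1a1 fell 3.44-fold and the receptor tyrosine kinase gene Mertk 3.15-fold, while the stress-inducible gene Ddit4 rose 1.86-fold (adjusted p = 0.00905, 0.0184 and 0.0161). Without replicate 3 these 48 h changes were 2.64-fold, 2.22-fold and 1.55-fold, and 8 targets rose and 6 fell, with a list median of 0.090, on the other side of 0. At 24 h, 4 rose and 5 fell without it. Over all genes, 25.5% were then called at 24 h and 18.1% at 48 h.

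Acute phase and inflammatory targets of C/EBPβ and C/EBPδ had the highest list medians, 0.51 at 24 h and 0.32 at 48 h, and of 14 tested 4 rose at 24 h, 5 rose at 48 h and none fell, where 2.6% and 6% of all genes were called higher. The cytokine gene Il6 had 1509 ± 61.5 in siLSD1 cells at 24 h, against 348 ± 4.85 in siControl cells (4.33-fold, n = 2 each, adjusted p = 0.0330 in limma). At 48 h it had 295 ± 228 in siLSD1 cells, against 40.05 ± 3.46 in siControl cells (6.17-fold, n = 3 each, adjusted p = 0.00473), and the fold was 4.10 without replicate 3. The chemokine gene Cxcl1 rose 2.74-fold at 24 h (adjusted p = 0.00473), and the prostaglandin synthase gene Ptgs2 2.56-fold at 24 h and 2.38-fold at 48 h (adjusted p = 0.00938 and 0.00448). The serum amyloid gene Saa3 rose 5.19-fold at 48 h (adjusted p = 0.0408) with 264 ± 296 in siLSD1 cells, an SD larger than the mean, against 35.3 ± 14.0 in siControl cells, and 2.76-fold without replicate 3. Without that array 5 rose and 1 fell at 24 h, beside 25.5% of all genes called. At 48 h, 7 rose and none fell without it, beside 18.1% of all genes called. Many genes of this list also answer to other factors, and which factor acts on them was not tested. Like the other lists, this one was chosen with earlier results of these data known, so its rank is a description only.

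**Figure D4:**
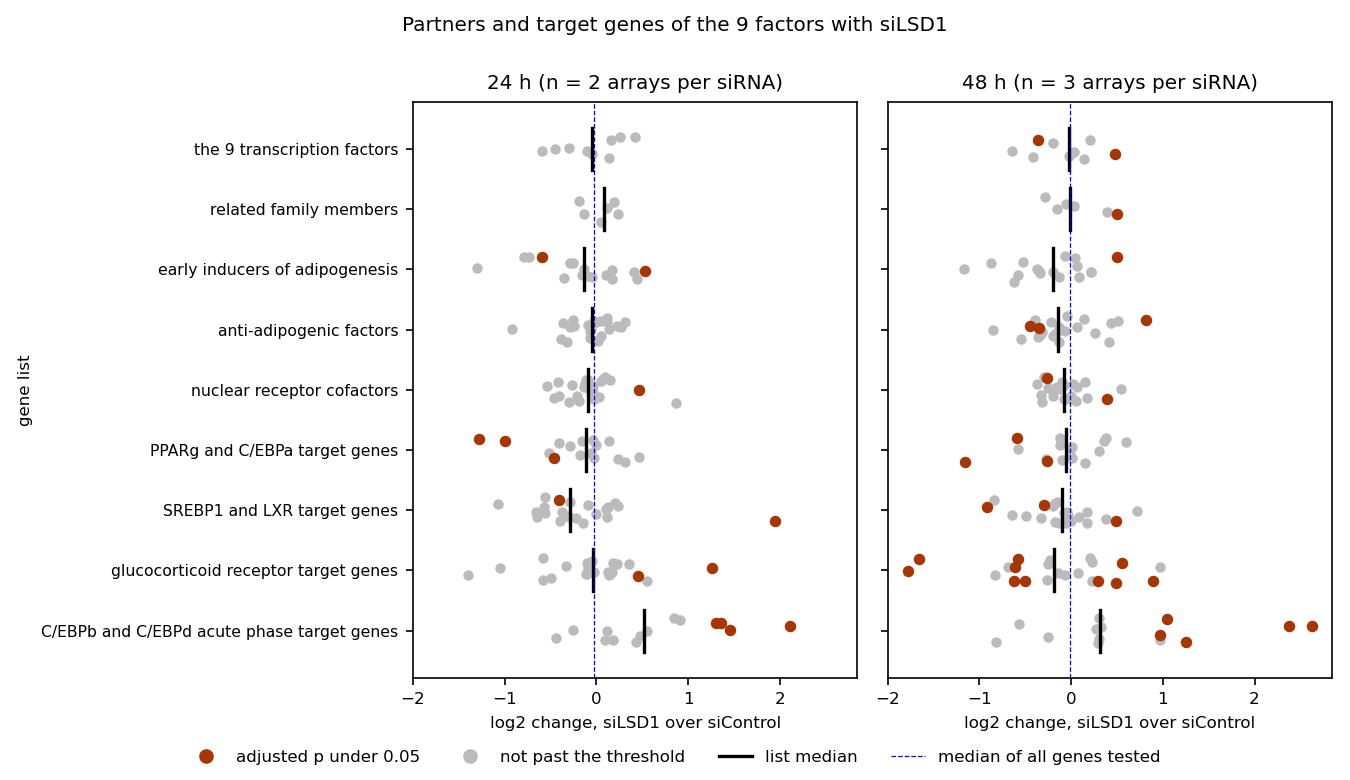
Log2 change, siLSD1 over siControl, of each tested gene by list at 24 h and 48 h (dark points passed an adjusted p of 0.05, bars are list medians, the dashed line the median of all tested genes). The acute phase list sat to the right, with medians of 0.51 and 0.32, and the 3 called PPARγ and C/EBPα targets at each time lay left of 0. The lists were chosen with earlier results of these data known.

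Across the 10 arrays, the factors varied with one another, in values that share the arrays and the siRNA and time groups. Log2 intensities of Cebpb and Nr3c1 had a Pearson r of -0.97, Rxra and Nr3c1 of 0.96, Cebpb and Rxra of -0.93, Cebpa and Nr3c1 of 0.81 and Cebpa and Cebpb of -0.80. Cebpb and Cebpd had an r of 0.77 and Cebpd and Cebpg of 0.75. Nr1h3 had its highest r with Pparg, 0.37, and its lowest with Cebpg, -0.61. These describe 10 arrays in 4 groups and carry no p.

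The tested genes with the highest r to a factor over the 10 arrays were Nol10, Chka and Tmem248 for Cebpb (r = 0.99 for each), and Commd3, Myo5a and Srgap3 for Nr3c1 (r of 0.991 to 0.997). For Rxra they were Slc5a3, Gpsm2 and Thbs2 (0.991 to 0.997), for Cebpa Sav1, Swap70 and Luzp1 (0.965 to 0.969), and for Cebpd Zxdb, Atf6b and Dnajc5 (0.963 to 0.965). For Pparg they were Parm1, Mitf and Zfp511 (0.942 to 0.957), for Cebpg Mapk1ip1l, Zfp994 and Pkn2 (0.939 to 0.967), for Srebf1 Ifitm3, Pnpla7 and Med15 (0.924 to 0.949), and for Nr1h3 Tbc1d10a, Sra1 and Gm14137 (0.902 to 0.919). With 13644 genes searched over 10 arrays, values of this size are a ranking of likeness only.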

How the data were processed

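The authors deposited 1 linear intensity for each probe set on each array, read from biotin-labelled cRNA per the labels' protocols. The summarisation, the normalization and a genome build are not given in the sources used here. Coordinates are printed for RefSeq promoters alone. These deposited intensities were turned into log2 values without an offset or another normalization. All 10 columns matched a labelled sample, and titles gave the siRNA and time that define the groups. Names come from the platform annotation, in which 34945 probe sets carried 1 gene symbol, 932 several and 9160 none. Each gene was represented by its brightest probe set, judged by mean log2 intensity. Of 18193 genes, the lowest 25% (4549 genes, mean of up to 18.4 intensity units) were left out as dim. All 9 transcription factor genes were among the 13644 tested.

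The package limma 3.58.1 (R 4.3.3) fitted one mean per group to all 10 arrays, with eBayes using an intensity trend and 6 residual degrees of freedom. From it 5 comparisons were taken: siLSD1 against siControl at each time, the difference of these changes, and 48 h against 24 h within each siRNA. P-values were adjusted by Benjamini and Hochberg over all genes of a comparison, and called means an adjusted p under 0.05. A second fit took all 45037 probe sets with no filter. Means ± SD are of linear intensities, and changes, folds and 95% intervals are on the log2 scale or derived from it. The fit was tested on simulated data. Promoters and figures were handled with Python 3.11.15, pandas 2.3.3 and matplotlib 3.10.9.

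Named are the 9 genes with every probe set. From each list of related genes up to 3 called members with the largest change per time are named, or the 1 with the smallest p, and Fabp4, Fasn, Abca1 and Fkbp5 whatever their values. For each factor the 3 genes with the highest Pearson r are named. The lists overlap in part (Klf9 and Lcn2 are each in 2 of them). Every mature adipocyte marker is also in the list of PPARγ and C/EBPα targets. Dlk1 is both a preadipocyte marker and a listed restraining factor, so these marker and list results share genes. The members and lists were chosen with earlier results of these data known. Alternatives were no filter on dim genes, every probe set tested, the probe sets of each gene averaged, quantile normalization, arrays centred on the median, intensity plus 16, no intensity trend, only the arrays compared, a replicate block by number or by sample code, and each array left out in turn. An average of siLSD1 48 h replicates 1 and 2 was added after seeing the data.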

Additional observations from a re-analysis of the deposited data

How the results depend on the processing

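Over 45 results (the 9 factors in 5 comparisons), 837 values under an alternative kept their direction and side of the threshold, 13 fell out of it, 43 came into it and 43 changed sign, 0 of which were called in either fit. Deviations from the group means were correlated between siLSD1 and siControl arrays of the same replicate number. The r was -0.07 at 24 h, and -0.19, 0.05 and -0.06 at 48 h. Deviations within a group sum to 0, so at 24 h every pairing of arrays gave -0.07 or 0.07. The 48 h values are bound in the same way. Whether replicate numbers pair the samples therefore cannot be decided from these values. With a replicate block by number, 1 factor and 680.0 genes were called at 24 h, 3 factors and 2006 genes at 48 h, and 1 factor in each siRNA between the times, with 3697 genes for siControl and 2210.0 for siLSD1. With a replicate block by the last digit of the sample code, which leaves arrays with an unshared digit (siLSD1 24 h replicate 1, siLSD1 48 h replicate 3 and siControl 48 h replicate 3) without weight, 4 factors were called at 24 h (Cebpa, Cebpb, Rxra and Nr3c1), 4 at 48 h (Cebpb, Cebpg, Pparg and Nr3c1) and 3 in each siRNA between times. The counts of all genes with that block were 1807 at 24 h, 2223 at 48 h, 27 for the difference, 5182 for siControl and 3850 for siLSD1 between times.

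With only the arrays compared, 3 factors and 3183 genes were called at 24 h, and 0 factors and 250 genes at 48 h. Between times, 3 factors and 4717 genes were called for siControl, and 347 genes for siLSD1. At 48 h Cebpb and Nr3c1 then had adjusted p of 0.0841 and 0.0958 in limma, and 0.0579 and 0.0510 with no intensity trend, which called 402 genes at 24 h, 1006 genes and 0 factors at 48 h and 1 gene for the difference. With probe sets averaged by gene, 427 genes were called at 24 h, and 948 genes and 1 factor at 48 h. With all probe sets tested, 6414 probe sets were called for siControl and 3042 for siLSD1 between times. Intensity plus 16 called 3 genes for the difference. For siControl between times 1 factor was called under quantile normalization, beside 3510.0 genes, and 2 with arrays centred, beside 3676 genes. Averaging siLSD1 48 h replicates 1 and 2 called 1035 genes for siLSD1 between times. The change of Cebpa at 48 h passed under quantile normalization, intensity plus 16, the block by number and that average (adjusted p = 0.0474, 0.0467, 0.0371 and 0.0402). Centring moved the median of all genes for siControl between times to -0.13, against 0.01, and the higher and lower calls to 1053 and 2623, against 1640.0 and 1662. It gave 330.0 and 540.0 at 24 h, against 355 and 381; 1043 and 756 at 48 h, against 818 and 910.0; and 760.0 and 1311 for siLSD1 between times, against 989 and 973.

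Leaving out 1 array at a time gave 0 to 4 factors and 30.0 to 3478 genes at 24 h, 0 to 5 factors and 382 to 2473 genes at 48 h, 0 to 0 factors and 0 to 201 genes for the difference, 0 to 3 factors and 1482 to 5510.0 genes for siControl between times, and 0 to 3 factors and 357 to 5232 genes for siLSD1 between times. The highest count in each came without siLSD1 48 h replicate 3.

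Changes of sign were of uncalled values. At 48 h, the mean of probe sets gave -0.031 for Cebpg and 0.22 for Rxra, and Nr1h3 was 0.065 under quantile normalization, 0.034 with arrays centred and 0.040 with the averaged replicates. For the difference, the block by sample code gave 0.30 for Cebpa, -0.062 for Cebpb, 0.057 for Cebpg and 0.061 for Nr3c1, the mean of probe sets -0.0010 for Cebpd and 0.077 for Nr3c1, and centring 0.00068 for Nr3c1. For siControl between times, centring gave -0.076 for Cebpa and -0.0073 for Pparg, the mean of probe sets 0.018 for Cebpg, and Srebf1 was 0.0025 under quantile normalization and 0.0043 with the block by number. For siLSD1 between times, Cebpa was 0.35 with the block by sample code and Pparg 0.0022 under quantile normalization. Without 1 array, Nr1h3 ranged from -0.46 to 0.26 at 24 h and from -0.16 to 0.050 at 48 h. The difference ranged from -0.38 to 0.043 for Cebpa, -0.072 to 0.13 for Cebpb, -0.059 to 0.17 for Cebpd, -0.25 to 0.020 for Cebpg, -0.28 to 0.44 for Nr1h3 and -0.11 to 0.033 for Nr3c1. Between times the siControl change ranged from -0.17 to 0.098 for Cebpg, -0.025 to 0.020 for Srebf1 and -0.069 to 0.65 for Nr1h3, and the siLSD1 change from -0.32 to 0.10 for Cebpa. The cause was not tested. Signal limits the dim probe sets of Rxra, Cebpg and Nr3c1, and groups of 2 or 3 arrays limit every comparison.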
